A study of Homo sapiens with 9 samples.

Results

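The integrated stress regulators described here are 10 genes of the 56779 genes in the table: ATF4, ATF3, DDIT3, CEBPB, PPP1R15A, TRIB3, DDIT4, SESN2, GDF15 and STC2. They were chosen because stress genes had gone opposite ways with 2 guides in these same libraries, so their differences between groups are given as a description. Counts of members past the threshold of the fit over all genes are printed beside the share of all genes past it, and support nothing. All 10 passed the filter on low counts and were among the 19619 genes tested. The libraries are total RNA, depleted of ribosomal RNA, from H1975, an established line of non-small cell lung cancer cells that carries activating mutations of EGFR. The cells carried TRE-dCas9-KRAB, a doxycycline-inducible Cas9 without nuclease activity fused to the KRAB repressor domain, which represses transcription near the site a guide RNA directs it to. The series asks what TRIDENT, a long noncoding RNA induced by EGFR, does in these cells. There were 3 groups of 3 libraries each: gRNA1, cells with TRIDENT gRNA1; gRNA2, cells with TRIDENT gRNA2; and control, cells with a non-targeting (NT) guide. All groups, the control included, had 4 ug/ml doxycycline for 72 h in medium with Tet-free serum, G418 and puromycin, and no cells without doxycycline were analysed here. The labels do not say whether a line was a clone or whether the libraries of a group came from separate cultures, so p-values measure only the spread between these libraries, which may be technical.

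In the integrated stress response, kinases that sense misfolded protein in the endoplasmic reticulum, lack of amino acids, viral RNA or lack of haem phosphorylate the translation initiation factor eIF2alpha. General translation then slows, while ATF4 mRNA is translated more, and ATF4 protein turns on genes of amino acid supply together with further regulators such as CHOP (the product of DDIT3), ATF3 and TRIB3. PPP1R15A encodes GADD34, which brings protein phosphatase 1 to eIF2alpha and so ends the response. Because ATF4 is set largely by translation, its mRNA does not report its protein, and these libraries measure mRNA alone.

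Upstream sequence from RefSeq (GRCh38.p14) is shown for 4 members to set the promoters beside the mRNA values: DDIT3, DDIT4 and SESN2, which had some of the highest folds with gRNA2, and PPP1R15A, whose window holds the full cyclic AMP response element TGACGTCA. In these 4 the RefSeq start lies at most 29 bases from the start of the most-read transcript. Each window ends 31 bases before the RefSeq start and begins 250 bases before it, or 192 bases before it for DDIT3, where an exon of MBD6 on the opposite strand was left out. The windows are chr12:57520548-57520709 (minus strand) for DDIT3, chr10:72273674-72273893 (plus) for DDIT4, chr1:28259268-28259487 (plus) for SESN2 and chr19:48872171-48872390 (plus) for PPP1R15A. Each runs 5′ to 3′ on the strand of its gene, and capitals mark matches on either strand to the motifs searched, which here are CCAAT (on the opposite strand this reads ATTGG), the hypoxia core ACGTG and the element TGACGTCA.
DDIT3: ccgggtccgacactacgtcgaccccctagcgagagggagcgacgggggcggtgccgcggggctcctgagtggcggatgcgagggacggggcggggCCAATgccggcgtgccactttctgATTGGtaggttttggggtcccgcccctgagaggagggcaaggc
DDIT4: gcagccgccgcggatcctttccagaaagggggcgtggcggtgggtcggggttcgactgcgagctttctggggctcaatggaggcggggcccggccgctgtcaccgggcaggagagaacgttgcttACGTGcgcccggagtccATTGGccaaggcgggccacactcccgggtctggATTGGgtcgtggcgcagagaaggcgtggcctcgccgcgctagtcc
SESN2: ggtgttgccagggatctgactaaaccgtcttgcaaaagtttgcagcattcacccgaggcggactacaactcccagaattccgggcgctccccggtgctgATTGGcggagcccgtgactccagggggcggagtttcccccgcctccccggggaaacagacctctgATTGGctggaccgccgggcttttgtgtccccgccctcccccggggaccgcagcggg
PPP1R15A: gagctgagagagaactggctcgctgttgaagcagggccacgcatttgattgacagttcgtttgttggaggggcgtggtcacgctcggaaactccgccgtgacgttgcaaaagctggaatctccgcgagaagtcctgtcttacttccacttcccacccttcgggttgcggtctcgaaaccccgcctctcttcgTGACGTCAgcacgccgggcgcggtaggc

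Across the 16 RefSeq windows of the 10 members, matches were sought on both strands in the 250 bases before the start, as letters only. CCAAT, the box bound by NF-Y, was found in 8 of the 16 windows, of 7 of 10 members (ATF3, CEBPB, DDIT3, DDIT4, GDF15, SESN2 and STC2), and in 32.01% of all 35116 promoter windows. DDIT3, DDIT4 and SESN2 hold it at a pair of places each. ACGTG, the hypoxia response core, was found in 3 of the 16 windows, of ATF4 and DDIT4, and in 18.51% of all windows; in ATF4 it is part of CACGTG, which matches on both strands. TGACGTCA was found for PPP1R15A alone, 58 to 51 bases before the start, and in 1.65% of all windows. TGATGNAA, the core of the C/EBP-ATF response element, was found for ATF3 alone and in 3.14% of all windows, but that ATF3 window belongs to a start 43263 bases before that of its most-read transcript. TTGCNTCA (2.77% of all windows) and the endoplasmic reticulum stress element (ERSE, 0.07%), which contains CCAAT, were found for 0 of 10 members. The RefSeq starts of STC2 and TRIB3 lie 1089 and at least 678 bases from the start of their most-read transcripts, and those of ATF3 at least 6348 bases. Sequence near the starts in use was therefore not searched for these 3 genes. All motifs were sought as exact matches, so the counts leave out near matches. In the printed DDIT3 window each match to the NF-Y box, read on its own strand, begins a stretch a single letter from the ERSE. Near matches in the other windows were not sought, so the ERSE count does not show that these promoters lack such an element. A match is a description and not a bound site.

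Libraries held 16918432 to 26466536 estimated reads, with gRNA2 replicate 3 the lowest. TRIDENT was matched through a RefSeq synonym to LINC02861, but FOXM1 carries the same synonym and the labels give no guide sequence, so it is uncertain that this is the RNA targeted. LINC02861 had 1.91 ± 0.163 CPM in the gRNA1 libraries, 2.44 ± 0.132 in the gRNA2 libraries and 2.58 ± 0.287 in the controls (SD, n = 3 each), where CPM is reads scaled to a common library size. Neither guide passed the threshold for it (adjusted p = 0.128 and 0.81, edgeR). TRIM28, the corepressor that KRAB recruits and that the series title names, had 383 ± 5.31 CPM with gRNA1, 340 ± 25.8 CPM with gRNA2 and 420 ± 23.2 CPM in the controls (adjusted p = 0.132 with gRNA1 and 0.00228 with gRNA2, the second lost with offsets for transcript length, 0.249). All 7 epithelial markers (EPCAM, KRT7, KRT8, KRT18, KRT19, CDH1 and EGFR) were at 77.0 TPM or more in every library, where TPM is a level per length. Their sum was 2027 to 2136 TPM with gRNA1, 2142 to 2154 TPM with gRNA2 and 2078 to 2194 TPM in the controls. Of 10 markers of other cell types, COL3A1 and HBB were at 0 in all 9 libraries. COL1A1 was at 7.80 to 9.69 TPM, LYZ at 3.13 to 3.98 TPM and PTPRC at 1.30 to 2.24 TPM, while CD3E, PECAM1, VWF and ALB reached at most 0.340 TPM. The sum of the 10 was 52.8 to 53.6 TPM with gRNA1, 57.8 to 63.5 TPM with gRNA2 and 52.4 to 58.6 TPM in the controls, of which the lysosomal protein gene CD68 gave 37.8 to 48.4 TPM. This sum tended higher with gRNA2, as most members did, but its range overlapped that of the controls, and its part in their values was not tested.

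Per length, ATF4 was the most abundant member and SESN2 the least, in every group. In the control libraries ATF4 stood at 134 ± 2.03 TPM, above 96.4% of the 12086 protein-coding genes with at least 1 TPM. DDIT4 followed at 29.5 ± 0.366 TPM, STC2 at 26.4 ± 1.28, TRIB3 at 24.9 ± 0.769, GDF15 at 23.5 ± 1.78, CEBPB at 22.9 ± 0.746 and DDIT3 at 21.2 ± 0.931 (mean ± SD, n = 3). PPP1R15A at 16.5 ± 0.828 TPM, ATF3 at 11.0 ± 2.11 and SESN2 at 3.02 ± 0.157 closed the order, and SESN2 lay above 12.9% of those coding genes. STC2 and TRIB3, TRIB3 and GDF15, and GDF15 and CEBPB overlapped between libraries, while the other neighbours in the order did not. In the gRNA2 libraries the order differed: GDF15 at 43.1 ± 2.94 TPM and DDIT3 at 40.7 ± 1.07 TPM stood in places 3 and 4, and TRIB3 at 27.7 ± 0.377 TPM in place 7. With gRNA1 GDF15 was also in place 3, at 28.0 ± 5.33 TPM, and STC2 was in place 7, at 19.5 ± 1.75 TPM. Libraries overlapped in these orders too. For gRNA2, GDF15 overlapped DDIT3, and TRIB3 overlapped CEBPB. For gRNA1, GDF15 overlapped DDIT4 and TRIB3, and STC2 overlapped CEBPB and DDIT3.

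**Figure D1:**
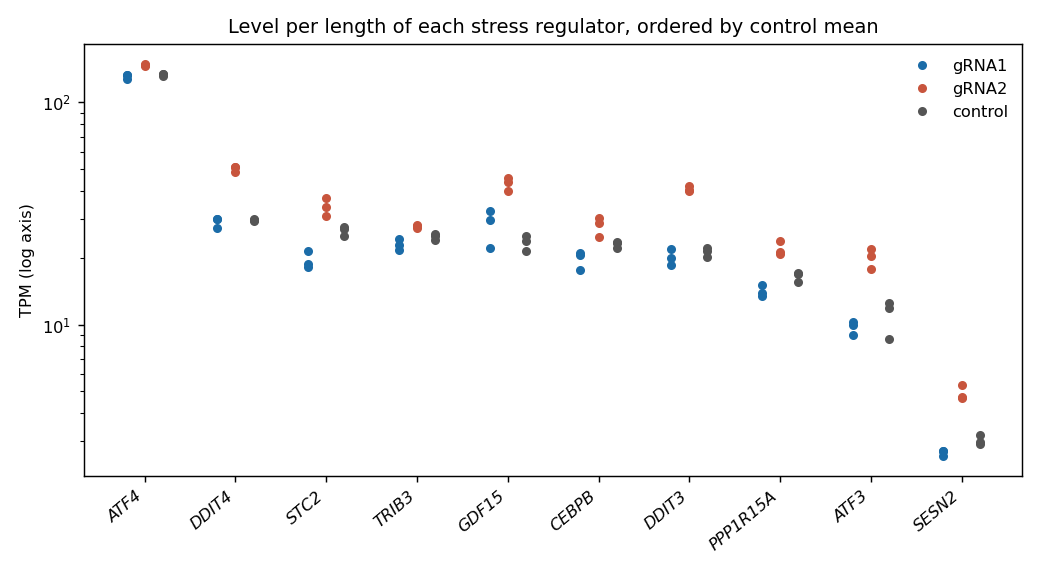
Level per length (TPM, log axis) of each member in each of the 9 libraries, with members ordered by their control mean from ATF4 (134 TPM) to SESN2 (3.02 TPM). Points are libraries, with gRNA1 in blue, gRNA2 in red and control in grey; the gRNA2 points of GDF15 and DDIT3 lie near 43.1 and 40.7 TPM, above members that they follow in the controls.

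The transcription factors came apart by guide, with DDIT3 and ATF3 far higher with gRNA2 and ATF4 itself nearly level. ATF4 (chr22:39519695-39522685 in hg38, plus strand), the factor at the head of the response, had 208, 204 and 218 CPM in the gRNA1 libraries, 237, 229 and 224 CPM in the gRNA2 libraries, and 227, 210.0 and 220.1 CPM in the controls. Each guide overlapped the controls, while all gRNA2 libraries lay above all gRNA1 libraries. The mean was 0.958-fold of control with gRNA1 (log2 -0.06 ± 0.04, standard error) and 1.05-fold with gRNA2 (log2 0.07 ± 0.04), and 1.10-fold in gRNA2 over gRNA1 libraries. In bulk RNA, fewer cells with a transcript and less of it per cell cannot be told apart, for this gene and those that follow. ATF4 shares 29.73% of its 31-mers with other genes, chiefly the pseudogenes ATF4P3 and ATF4P4, which were given at most 0.148 and 0.0764 CPM in any library, so the split of reads between these copies is uncertain.

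DDIT3 (chr12:57516588-57521737, minus strand) encodes CHOP, the factor linked to cell death in prolonged stress. It had 18.7, 19.6 and 23.7 CPM in the gRNA1 libraries, 41.5, 39.5 and 40.3 CPM in the gRNA2 libraries, and 22.8, 22.3 and 22.3 CPM in the controls. The gRNA2 libraries stood well apart from all others, and gRNA1 replicate 3 lay above the controls while the other gRNA1 libraries lay below them. DDIT3 had the highest fold of the members with gRNA2, 1.80-fold of control (log2 0.85 ± 0.07), against 0.919-fold with gRNA1 (log2 -0.12 ± 0.08), and 1.96-fold in gRNA2 over gRNA1 libraries. Of its 31-mers 28.94% occur in other genes, and 21.49% in MARS1, the methionyl-tRNA synthetase gene that overlaps it on the opposite strand. The strand setting is not given in the sources used here, so reads from the shared stretch cannot be told apart. MARS1 had 134 ± 3.28 CPM with gRNA1, 164 ± 3.90 CPM with gRNA2 and 143 ± 4.68 CPM in the controls (1.14-fold with gRNA2 against control, adjusted p = 0.00799, edgeR). It stood well above DDIT3 in every library, and the part of shared reads in the DDIT3 values was not tested.

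ATF3 (chr1:212565334-212620777, plus strand), a stress-induced repressor and activator of the ATF/CREB family, was at 16.1, 17.0 and 16.3 CPM with gRNA1, 32.4, 30.4 and 30.0 CPM with gRNA2 and 18.5, 20.2 and 19.9 CPM in the controls. The 3 groups did not overlap, with gRNA1 lowest and gRNA2 highest. That made 0.843-fold with gRNA1 (log2 -0.25 ± 0.06) and 1.58-fold with gRNA2 (log2 0.66 ± 0.06) against control, and 1.88-fold between the guides. CEBPB (chr20:50190734-50192689, plus strand), the C/EBP family factor that partners with ATF4 and CHOP, was at 15.4, 15.3 and 16.2 CPM with gRNA1, 21.4, 22.0 and 20.6 CPM with gRNA2 and 19.4, 17.0 and 18.0 CPM in the controls. It too had gRNA1 below and gRNA2 above every control, but by less, at 0.864-fold (log2 -0.21 ± 0.07) and 1.18-fold (log2 0.24 ± 0.07). No 31-mer of ATF3 occurs in another gene, whereas 11.63% of those of CEBPB do, mostly in CEBPB-AS1 on the opposite strand, which had 0.657 CPM with gRNA1, 0.803 with gRNA2 and 0.472 in the controls.

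**Figure D2:**
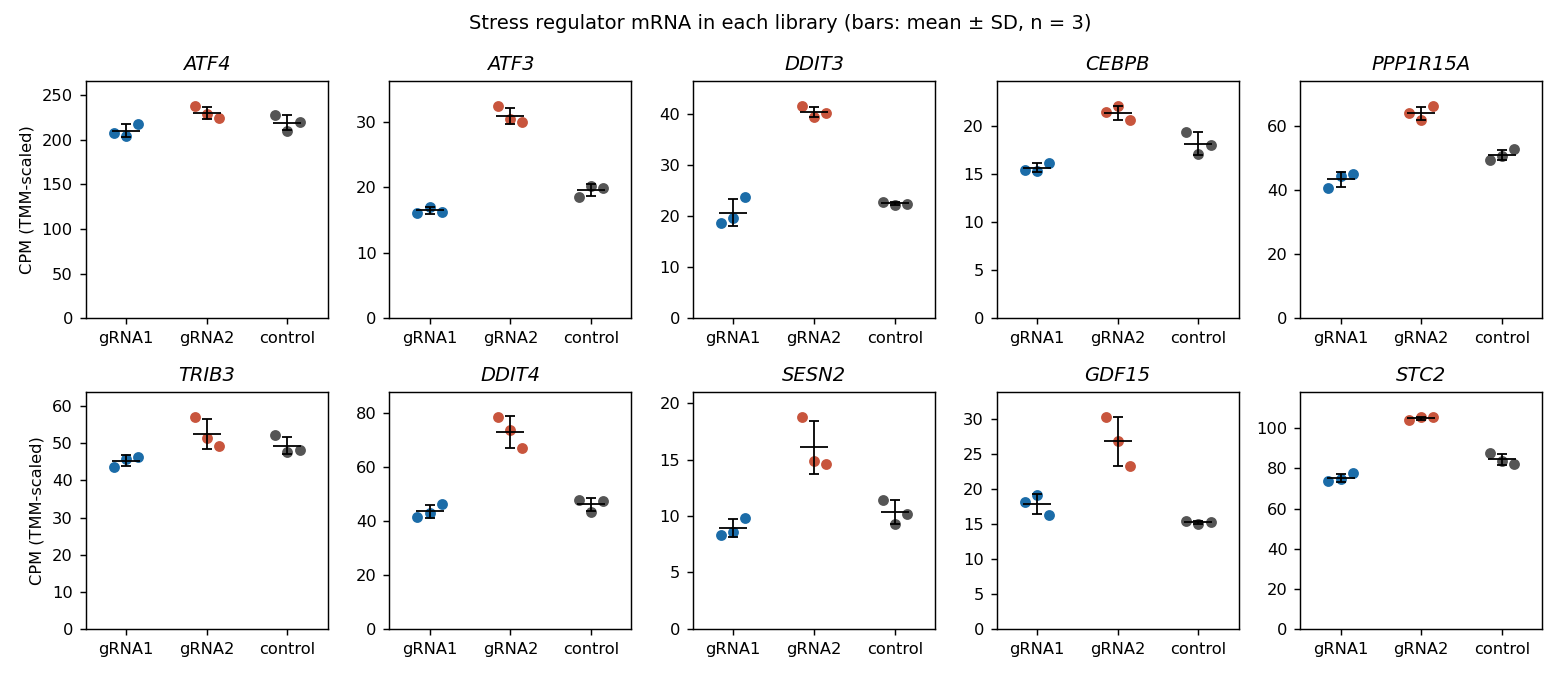
Level of each member (CPM on TMM-scaled library sizes) in each library, in panels that start at 0, for gRNA1 (blue), gRNA2 (red) and control (grey); bars are the mean ± SD of 3 libraries. In DDIT3 the gRNA2 libraries lie between 39.5 and 41.5 CPM and the others between 18.7 and 23.7 CPM, whereas in ATF4 all libraries lie between 204 and 237 CPM.

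With gRNA2 the feedback regulators moved less than DDIT3. PPP1R15A (chr19:48872392-48876057, plus strand), the GADD34 gene whose upstream sequence holds TGACGTCA, had 40.5, 44.4 and 44.8 CPM in the gRNA1 libraries, 63.8, 61.8 and 65.9 CPM in the gRNA2 libraries, and 49.3, 50.6 and 52.6 CPM in the controls. No groups overlapped: gRNA1 lay lowest and gRNA2 highest, at 0.850-fold of control with gRNA1 (log2 -0.23 ± 0.05) and 1.25-fold with gRNA2 (log2 0.33 ± 0.05). TRIB3 (chr20:362835-397559, plus strand), a pseudokinase that binds ATF4 and CHOP and dampens their activity, had 43.7, 45.9 and 46.3 CPM with gRNA1, 57.0, 51.4 and 49.2 CPM with gRNA2 and 52.1, 47.8 and 48.3 CPM in the controls. Every gRNA1 library lay below every control, and the gRNA2 libraries overlapped the controls. TRIB3 and ATF4 were the members with the smallest folds for gRNA2, 1.07-fold for TRIB3 (log2 0.09 ± 0.06), against 0.919-fold with gRNA1 (log2 -0.12 ± 0.06).

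Both inhibitors of mTORC1 signalling were higher with gRNA2 and overlapped the controls with gRNA1. DDIT4 (chr10:72273920-72276036, plus strand), the REDD1 gene, also known as a hypoxia and glucocorticoid target, was at 41.5, 42.9 and 46.4 CPM with gRNA1, 78.5, 73.7 and 67.0 CPM with gRNA2 and 47.7, 43.4 and 47.4 CPM in the controls. SESN2 (chr1:28259527-28282491, plus strand), sestrin 2, which senses leucine and is also a p53 target, was at 8.33, 8.58 and 9.85 CPM with gRNA1, 18.8, 14.9 and 14.7 CPM with gRNA2 and 11.5, 9.33 and 10.2 CPM in the controls. For both genes the gRNA2 libraries lay above all others, with gRNA2 replicate 1 the highest, and the gRNA1 libraries overlapped the controls. DDIT4 was at 0.946-fold with gRNA1 (log2 -0.08 ± 0.06) and 1.59-fold with gRNA2 (log2 0.67 ± 0.06), and SESN2 at 0.867-fold (log2 -0.21 ± 0.12) and 1.57-fold (log2 0.65 ± 0.11). SESN2 rests on the fewest reads of the members, 169 to 455 per library. DDIT4 shares 38.26% of its 31-mers with DDIT4-AS1 on the opposite strand, which had at most 0.163 CPM in any library.

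The secreted members differed from each other with gRNA1. GDF15 (chr19:18374731-18389176, plus strand), a cytokine of the TGF-beta family induced by many stresses, had 18.1, 19.1 and 16.3 CPM in the gRNA1 libraries, 30.2, 26.8 and 23.3 CPM in the gRNA2 libraries, and 15.4, 14.9 and 15.2 CPM in the controls. It was the single member for which gRNA1 stood above the controls in every library, at 1.18-fold (log2 0.23 ± 0.09), with gRNA2 higher still at 1.77-fold (log2 0.83 ± 0.09). STC2 (chr5:173314713-173329503, minus strand), the glycoprotein stanniocalcin 2, had 73.7, 74.8 and 77.7 CPM with gRNA1, 104, 106 and 106 CPM with gRNA2 and 87.5, 83.8 and 82.4 CPM in the controls. The groups of STC2 did not overlap, with gRNA1 lowest, at 0.892-fold (log2 -0.16 ± 0.04), and gRNA2 highest, at 1.24-fold (log2 0.31 ± 0.04). With offsets for the average transcript length the STC2 value with gRNA1 was log2 -0.46 in place of -0.16, and in gRNA2 over gRNA1 libraries it was 0.76 in place of 0.48.

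Read together, 9 of 10 members had a fold under 1 with gRNA1 and all 10 a fold over 1 with gRNA2. The 2 comparisons use the same 3 control libraries. With gRNA1 against control 3 members (ATF3, PPP1R15A and STC2) were past an adjusted p of 0.05 and lower, where 3.59% of all genes were lower, and 0 were higher, where 3.5% were (edgeR; at an unadjusted p of 0.05, 4 lower and 1 higher; with DESeq2, 2 lower and 0 higher). With gRNA2 against control 8 members were past it and higher, all but ATF4 and TRIB3, beside 3.73% of all genes, and 0 were lower, beside 4.77% (0 also at an unadjusted p of 0.05 and with DESeq2). In gRNA2 over gRNA1 libraries 9 were past it and higher, all but ATF4, beside 3.13% of all genes, and 0 were lower, beside 3.12% (0 also at an unadjusted p of 0.05 and with DESeq2). The members were picked on these same differences, so nothing is read from these shares. The median log2 fold change of the 10 was -0.14 with gRNA1, 0.49 with gRNA2 and 0.58 between the guides, while that of all genes tested lay between -0.0003 and 0.01. By library, 5 members had every gRNA1 library below every control (14.6% of all genes did), 1 had every such library above (13.5%) and 4 overlapped. For gRNA2 8 lay above every control (13.7%) and 2 overlapped, and for gRNA2 over gRNA1 all 10 lay above (11.9%) and 0 below (12%). Members with every gRNA1 library below and every gRNA2 library above every control numbered 4 (ATF3, CEBPB, PPP1R15A and STC2), where 0.795% of all genes tested had that pattern. The count of 3 with gRNA1 became 0 without gRNA1 replicate 1 or control replicate 2, and 1 without gRNA1 replicate 2, gRNA2 replicate 2 or control replicate 3 and with the length offset. Of the gRNA2 calls against control, that of CEBPB held in 6 of 14 alternatives, that of STC2 in 13 and the others in all 14. Between the guides the TRIB3 call held in 6 of 14 and the others in all 14.

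**Figure D3:**
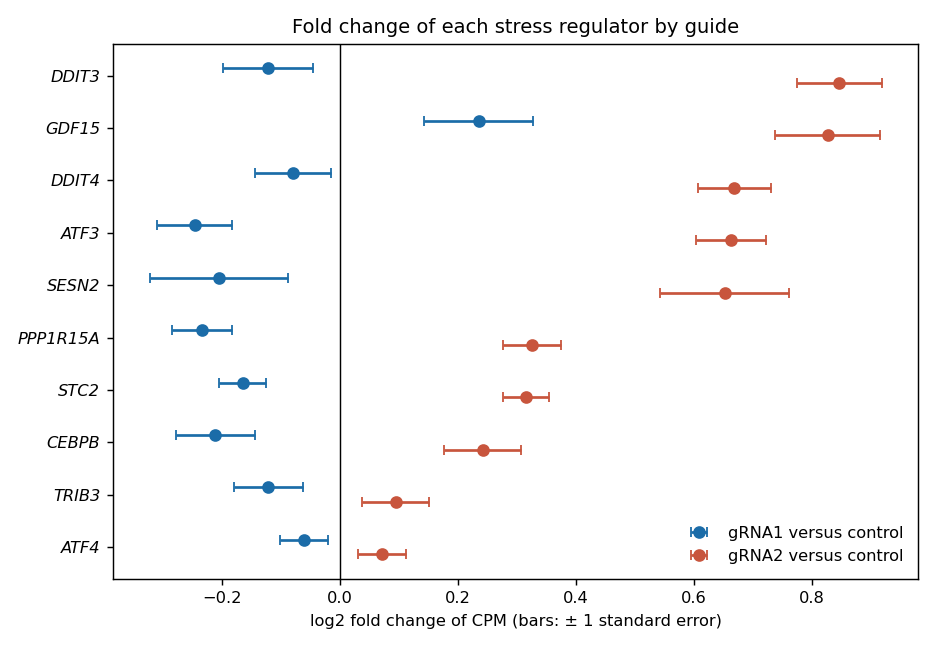
Log2 fold change of CPM against control for each member, gRNA1 (blue) and gRNA2 (red), with bars of 1 standard error, ordered by the gRNA2 value from DDIT3 (0.85) to ATF4 (0.07). Every red point lies right of 0, and every blue point lies left of 0 except that of GDF15 (0.23).

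The libraries of a group kept the same order in most members. Averaged over the 10 members, the log2 difference from the control mean was -0.17, -0.13 and -0.07 in the gRNA1 libraries, 0.54, 0.45 and 0.40 in the gRNA2 libraries and 0.04, -0.04 and 0.00 in the controls. The gRNA2 libraries thus stood apart from the rest, and the gRNA1 libraries stood below the controls by less than the gap between gRNA2 and the controls. Replicate 3 of gRNA2 had 9 members above the control mean, all but TRIB3, and the other gRNA2 libraries had all 10. Across the 9 libraries the members whose patterns lay nearest each other, as the root mean square difference of mean-centred log2 CPM, were CEBPB and STC2 (0.0509), ATF4 and TRIB3 (0.0552), PPP1R15A and STC2 (0.0660) and DDIT4 and SESN2 (0.0926). The widest gap was between ATF4 and DDIT3 (0.387). The members therefore fall along a range of fold, with ATF4 and TRIB3 at its low end and DDIT3, GDF15, DDIT4, ATF3 and SESN2 at its high end.

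Transcript shares were mostly alike in the 3 groups. Each is a part of the gene sum that the choice of members used, so a share can move when that sum does. ATF4-202 held 92.2 ± 0.883% of ATF4 reads with gRNA1, 91.9 ± 1.03% with gRNA2 and 92.2 ± 0.517% in the controls (SD, n = 3). PPP1R15A-201 held 89.2 ± 1.06% of its gene's reads with gRNA1, 88.4 ± 1.55% with gRNA2 and 87.9 ± 1.69% in the controls, and CEBPB and SESN2 have a single transcript each in the annotation. These differences were smaller than or close to the spread between libraries. DDIT3-201, the chief DDIT3 transcript, held 59.7 ± 10.5% with gRNA1, 66.3 ± 8.47% with gRNA2 and 55.4 ± 5.15% in the controls, with overlapping libraries. ATF3-209, a processed transcript with no coding sequence annotated, held 12.6, 7.62 and 7.94% of ATF3 reads with gRNA1, 5.57, 5.94 and 6.09% with gRNA2 and 11.1, 11.4 and 9.62% in the controls. Its share was below every other library in the gRNA2 libraries, while its own level was 0.625 ± 0.190 TPM with gRNA1, 0.755 ± 0.0288 TPM with gRNA2 and 0.833 ± 0.103 TPM in the controls, and the coding ATF3-202 was at 5.77 ± 0.515 TPM with gRNA1, 11.5 ± 0.708 TPM with gRNA2 and 6.67 ± 0.0914 TPM in the controls. STC2-203, a retained-intron transcript, took 0, 2.22 and 1.51% of STC2 reads with gRNA1, 4.20, 3.08 and 2.16% with gRNA2 and 3.13, 3.09 and 3.28% in the controls. Every gRNA1 library lay below every control for it, and the gRNA2 libraries overlapped both other groups. With 3 libraries a side the smallest two-sided exact permutation p is 0.10, so these shares were not tested.

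The genes whose pattern over the 9 libraries was most like that of ATF4, among 10755 genes whose log2 CPM averaged 3 or more, were BUD23 (root mean square difference 0.0217), ACSS2 (0.0256), DNAJA3 (0.0274) and DNASE1L1 (0.0291). ATF4 itself varied by 0.0677 about its mean on that scale, and the median gene lay 0.111 from it, so nearness to so flat a pattern is shared by many genes. For DDIT3 the nearest were EGR1 (0.0901), TXNIP (0.144), CCN1 (0.152) and CD274 (0.153), against 0.440 for DDIT3 about its own mean and 0.451 for the median gene. EGR1 is an immediate early transcription factor, TXNIP the thioredoxin-interacting protein, CCN1 a matricellular protein and CD274 the immune checkpoint ligand PD-L1. TXNIP had 212, 215 and 204 CPM with gRNA1, 372, 378 and 370.1 CPM with gRNA2 and 237, 249 and 247 CPM in the controls. Like DDIT3, all 4 stood highest in the gRNA2 libraries, by 1.70-fold (EGR1), 1.53-fold (TXNIP), 1.43-fold (CCN1) and 1.53-fold (CD274) of control, which is a description of genes picked for their likeness.

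No gene of the machinery that starts the response was called by edgeR. For so few genes that is close to the share of all genes called, and mRNA does not measure phosphorylation, so nothing is read from it. Of 16 tested genes for the eIF2alpha kinases and the eIF2 and eIF2B subunits and their activators, 0 were higher and 0 lower in each of the 3 comparisons, where 7.1% of all genes were called with gRNA1, 8.5% with gRNA2 and 6.25% between the guides (edgeR). At an unadjusted p of 0.05 the counts were 0 higher and 5 lower with gRNA1, 1 and 1 with gRNA2 and 0 and 0 between the guides, and DESeq2 called GCN1, the activator of GCN2, lower with gRNA2. The median log2 change of these 16 was -0.09 with gRNA1 and -0.06 with gRNA2. EIF2AK3 (PERK), the kinase of the endoplasmic reticulum, was at log2 -0.10 with gRNA1 and -0.05 with gRNA2 (adjusted p = 0.219 and 0.573). EIF2AK4 (GCN2), the amino acid sensor, was at -0.09 and -0.07 in the same comparisons (adjusted p = 0.223 and 0.305).

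Among other genes known as ATF4 targets, calls were mostly falls with gRNA1 and mostly rises with gRNA2. This list, like every list here, was chosen with earlier results of these data known, so its counts are a description and support nothing. With gRNA1 7 of 39 tested fell, where 3.59% of all genes did, and 0 rose (edgeR; 22 lower and 0 higher at an unadjusted p of 0.05, 9 and 0 with DESeq2), with gRNA2 15 rose (3.73% of all genes) and 1 fell (4.77%), and in gRNA2 over gRNA1 libraries 22 rose (3.13%) and 0 fell (1 lower at an unadjusted p, 0 with DESeq2). Their median log2 change was -0.10, 0.09 and 0.19 in those comparisons, and FGF21 had too few reads to test. CHAC1, a glutathione-degrading enzyme, had 2.12, 2.31 and 2.76 CPM in the gRNA1 libraries, 5.90, 6.34 and 5.95 CPM in the gRNA2 libraries and 2.14, 2.77 and 2.99 CPM in the controls. The gRNA2 libraries stood apart from all others, at 2.29-fold of control (log2 1.19 ± 0.14, adjusted p = 0.000172), with 0.902-fold for gRNA1 (adjusted p = 0.641). PSAT1, of serine synthesis, fell to 115 ± 5.47 CPM with gRNA1 and rose to 154 ± 0.712 CPM with gRNA2, against 132 ± 1.27 CPM in the controls (0.871-fold, adjusted p = 0.00749, and 1.17-fold, adjusted p = 0.00294). SLC3A2, the heavy chain of amino acid transporters, fell to 106 ± 0.422 CPM with gRNA1, against 129 ± 7.48 CPM in the controls (0.824-fold, adjusted p = 0.0032), and had 138 ± 7.16 CPM with gRNA2 (adjusted p = 0.256).

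Among the remaining listed targets, ASNS, asparagine synthetase, was at 0.840-fold with gRNA1 (adjusted p = 0.00256) and 1.13-fold with gRNA2 (adjusted p = 0.0176), with 121 ± 6.59 CPM in gRNA1 libraries, 163 ± 3.23 CPM in gRNA2 libraries and 144 ± 1.80 CPM in the controls. The cystine transporter gene SLC7A11 rose 1.30-fold with gRNA2 (adjusted p = 0.0024) and stood at 1.01-fold with gRNA1 (adjusted p = 0.943); its gRNA2 call ended with the length offset (0.0627). AARS1, alanyl-tRNA synthetase, rose 1.17-fold with gRNA2 (adjusted p = 0.00132), and was 0.970-fold with gRNA1 (adjusted p = 0.517). The single fall with gRNA2 was VLDLR, a lipoprotein receptor, at 0.813-fold (adjusted p = 0.0184). Of the calls, 2 of 7 with gRNA1 (PSAT1 and SLC3A2), 5 of 16 with gRNA2 (CHAC1, PSAT1, ADM2, AARS1 and MARS1) and 11 of 22 between the guides held in all alternatives. MARS1 shares sequence with DDIT3, and the part of shared reads in the MARS1 values was not tested. The ASNS call ended with the length offset for gRNA1 (adjusted p = 0.069) and, for gRNA2, without any 1 of the 3 controls or gRNA2 replicate 2 (0.0508 to 0.105), and the VLDLR call ended without control replicates 1 or 3 or gRNA2 replicate 2 and with the length offset (0.0735 to 0.0848).

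**Figure D4:**
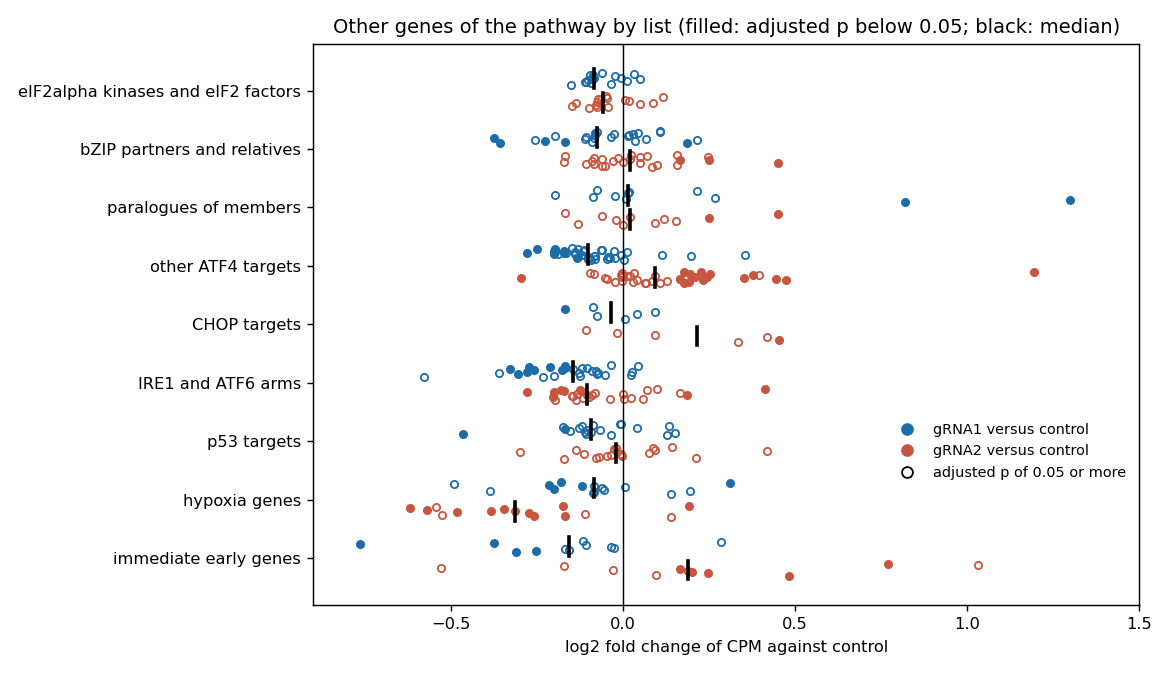
Log2 fold change against control of the tested genes of 9 lists, gRNA1 (blue) and gRNA2 (red); filled points passed an adjusted p of 0.05 and black bars are medians. The other ATF4 targets lie mostly left of 0 with gRNA1 (median -0.10) and mostly right of it with gRNA2 (median 0.09), the IRE1 and ATF6 genes lie mostly left of 0 with both guides (medians -0.15 and -0.10), and the hypoxia genes lie mostly left of 0 with gRNA2 (median -0.31).

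Of 6 listed CHOP targets tested, 1 fell with gRNA1, TNFRSF10B, the death receptor DR5 (0.889-fold, adjusted p = 0.0153; 3.59% of all genes were lower), and 0 rose (0 also unadjusted and with DESeq2). With gRNA2 1 rose, PMAIP1, the BH3 protein NOXA (3.73% of all genes were higher), and 0 fell (1 lower unadjusted, 0 with DESeq2). In gRNA2 over gRNA1 libraries both of these rose (3.13% of all genes higher) and 0 fell (0 also unadjusted and with DESeq2), with TNFRSF10B at 1.11-fold (adjusted p = 0.0303; call ended in 8 of 14 alternatives). PMAIP1 had 42.4, 45.0 and 41.0 CPM with gRNA1, 56.4, 60.5 and 69.2 CPM with gRNA2 and 41.6, 47.4 and 46.2 CPM in the controls. The gRNA2 libraries lay above all others (1.37-fold of control, log2 0.45 ± 0.07, adjusted p = 0.00157), and gRNA1 overlapped the controls. The gRNA1 call of TNFRSF10B ended with the length offset and on leaving out gRNA1 replicate 1 or 2 or control replicate 3 (adjusted p between 0.0592 and 0.0782).

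The other arms of the unfolded protein response held more falls than rises against control with either guide. Of 27 tested genes of the IRE1 and ATF6 arms, 9 fell and 0 rose with gRNA1 (3.59% of all genes lower; edgeR; 16 lower and 0 higher at an unadjusted p of 0.05, 11 and 0 with DESeq2), 7 fell and 2 rose with gRNA2 (4.77% of all genes lower and 3.73% higher), and 5 rose and 0 fell in gRNA2 over gRNA1 libraries (3.13% higher; 1 lower unadjusted, 0 with DESeq2). HSPA5, the chaperone BiP, was at 512, 511 and 534 CPM with gRNA1, 571, 572 and 583 CPM with gRNA2 and 617, 622 and 642 CPM in the controls. Each guide lay below every control, at 0.828-fold with gRNA1 (adjusted p = 0.000164) and 0.917-fold with gRNA2 (adjusted p = 0.0252). CALR, the chaperone calreticulin, fell to 0.797-fold with gRNA1 (adjusted p = 0.000149) and 0.824-fold with gRNA2 (adjusted p = 0.000517). ERN1, the stress sensor IRE1 itself, rose 1.33-fold with gRNA2 (log2 0.41 ± 0.05, adjusted p = 0.000244) and was at 0.976-fold with gRNA1 (adjusted p = 0.748), and the second rise with gRNA2 was HERPUD1, of protein degradation (1.14-fold, adjusted p = 0.0172). In all alternatives 3 of 9 calls with gRNA1 held (HSPA5, CALR and HYOU1), and 1 of 9 with gRNA2 (PDIA6). Between the guides 2 of 5 held (XBP1 and DNAJB9). The gRNA2 call of HSPA5 ended without control replicates 2 or 3 or gRNA2 replicate 2 and with the length offset (adjusted p between 0.0769 and 0.144). Those of CALR and ERN1 ended with the length offset (0.0509 and 0.243). That of HERPUD1 ended without control replicates 1 or 2 or gRNA2 replicate 2 and with the length offset.

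Among 25 tested basic leucine zipper (bZIP) factors, partners and relatives of the members, 4 fell (FOS, NFE2L1, XBP1 and CREB3L1) and 1 rose (CREB3L2) with gRNA1, where 3.59% of all genes fell and 3.5% rose. With gRNA2 3 rose (CEBPG, JUN and JDP2; 3.73% of all genes) and 0 fell (1 lower unadjusted, 0 with DESeq2), and in gRNA2 over gRNA1 libraries 4 rose (CEBPG, JUN, XBP1 and CREB3L1; 3.13%) and 0 fell (1 lower unadjusted, 1 with DESeq2). Of these calls, 1 of 5 with gRNA1 (CREB3L2), 0 of 3 with gRNA2 and 3 of 4 between the guides (CEBPG, JUN and XBP1) held in all alternatives. CEBPG, a C/EBP partner of ATF4, had 45.8 ± 2.87 CPM with gRNA1, 62.7 ± 5.08 CPM with gRNA2 and 52.6 ± 1.45 CPM in the controls, and its 1.37-fold difference of gRNA2 over gRNA1 (adjusted p = 0.000562) held in all alternatives. Its gRNA2 call against control (1.19-fold, adjusted p = 0.021) ended without any 1 of the controls or gRNA2 replicates 2 or 3 and with the length offset (0.051 to 0.146). JDP2, a repressor close to ATF3, rose 1.36-fold with gRNA2 (adjusted p = 0.00308; 0.201 with the length offset). Of 11 tested paralogues, TRIB2, the relative of TRIB3, and STC1, the relative of STC2, rose with gRNA1, TRIB2 at 2.46-fold (log2 1.30, adjusted p = 0.00339) and STC1 at 1.76-fold (adjusted p = 0.0244), where 3.5% of all genes rose. TRIB2 had 2.12, 1.84 and 1.72 CPM with gRNA1, 0.619, 0.802 and 0.661 CPM with gRNA2 and 0.642, 0.937 and 0.690 CPM in the controls, while TRIB3 lay below the controls with gRNA1. DESeq2 gave no adjusted p for TRIB2, and with the length offset its value was log2 0.44 in place of 1.30 and its call ended (adjusted p = 0.489). The STC1 call ended with DESeq2 (0.062), with the length offset and on leaving out gRNA1 replicate 1 or 2 or control replicate 2 or 3 (0.0545 to 0.113 in all).

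SESN2 and GDF15 are also known p53 targets. Of 19 other p53 targets tested, 2 fell (TNFRSF10B and PLK3; 3.59% of all genes) and 0 rose with gRNA1 (0 also unadjusted and with DESeq2), and 0 rose and 0 fell with gRNA2 (edgeR; 2 higher and 1 lower at an unadjusted p of 0.05, 0 with DESeq2). In gRNA2 over gRNA1 libraries 3 rose (TNFRSF10B, PLK3 and AEN; 3.13% of all genes) and 0 fell (1 lower unadjusted, 0 with DESeq2). None of these p53 target calls held in all alternatives. DDIT4 is also known as a hypoxia gene. Of 15 other hypoxia genes tested, 4 fell and 1 rose with gRNA1 (3.59% of all genes lower and 3.5% higher), 10 fell and 1 rose with gRNA2 (4.77% lower and 3.73% higher), and 8 fell and 0 rose in gRNA2 over gRNA1 libraries (3.12% lower; 0 higher also unadjusted and with DESeq2). LDHA, lactate dehydrogenase A, had 1105, 1112 and 1069.5 CPM in the gRNA1 libraries, 792, 802 and 810.0 CPM in the gRNA2 libraries and 1173, 1184 and 1211 CPM in the controls. The 3 groups did not overlap, with gRNA2 lowest at 0.674-fold of control (log2 -0.57 ± 0.03, adjusted p = 2.71e-07). PGK1 and ENO1, of glycolysis, fell to 0.787-fold and 0.805-fold with gRNA2 (adjusted p = 4.69e-05 and 6.32e-05), and these 3 calls held in all alternatives. VEGFA, the angiogenic factor that ATF4 also induces, was the exception in both comparisons, at 1.24-fold with gRNA1 (adjusted p = 0.00165) and 1.14-fold with gRNA2 (adjusted p = 0.0271). The gRNA2 call of VEGFA ended without any 1 of the controls or gRNA2 replicates 1 or 2 and with the length offset (0.065 to 0.0992). Its gRNA1 call was the only 1 of 5 hypoxia gene calls with gRNA1 that held in all alternatives. For gRNA2 7 of 11 held, and between the guides 5 of 8.

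Some immediate early genes, the group of EGR1, fell with gRNA1 and some rose with gRNA2. Of 11 tested, 4 fell (FOS, FOSB, KLF6 and MYC) and 0 rose with gRNA1 (3.59% of all genes lower; edgeR; 8 lower and 0 higher at an unadjusted p of 0.05, 3 and 0 with DESeq2), 5 rose (EGR1, JUN, DUSP1, KLF4 and MYC) and 0 fell with gRNA2 (3.73% of all genes higher; 1 lower unadjusted, 0 with DESeq2), and 6 rose and 0 fell in gRNA2 over gRNA1 libraries (3.13% higher; 0 lower unadjusted and with DESeq2). EGR1 had 54.5, 56.1 and 56.7 CPM with gRNA1, 109, 97.1 and 103 CPM with gRNA2 and 62.8, 60.8 and 57.7 CPM in the controls. It rose 1.70-fold with gRNA2 (log2 0.77 ± 0.05, adjusted p = 1.22e-06) and was at 0.923-fold with gRNA1 (adjusted p = 0.199). MYC, the growth factor-induced transcription factor, fell to 192 ± 4.23 CPM with gRNA1 and rose to 333 ± 8.93 CPM with gRNA2, against 238 ± 12.6 CPM in the controls (0.806-fold, adjusted p = 0.000543, and log2 0.48 ± 0.04, adjusted p = 1.15e-05). In all alternatives 2 of the 4 calls with gRNA1 held (KLF6 and MYC), 2 of the 5 with gRNA2 (EGR1 and MYC) and all 6 between the guides. With gRNA1, the FOS call ended in 5 of 14 alternatives (the length offset and leaving out gRNA1 replicate 1 or 2 or control replicate 2 or 3, adjusted p between 0.0748 and 0.148). The FOSB call ended in 7 (DESeq2, the length offset and leaving out any gRNA1 replicate or control replicate 1 or 2, 0.0507 to 0.131). With gRNA2, the calls of JUN and DUSP1 ended in 10 each (0.0551 to 0.159 for JUN and 0.0527 to 0.166 for DUSP1) and that of KLF4 in 2 (the length offset and without control replicate 3, 0.0556 to 0.201).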

How the data were processed

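RNA of 9 libraries (3 each of gRNA1, gRNA2 and control) was measured after ribosomal RNA depletion with the KAPA RiboErase kit, per the labels' protocols. Reads were quantified per transcript with Salmon 1.4.0 and hg38, per the submitters' processing notes. Each deposited table holds an estimated count of reads, TPM, length and effective length per transcript, per the file headers; the strand and bias settings are not given in the sources used here. Estimated counts, which the authors had not scaled further as far as the file headers show, were summed to genes with GENCODE 29 (95.7% of 211939 transcripts matched, with 1.27 to 1.33% of reads left unmatched) and rounded to whole numbers. TPM, deposited by the authors' run, was summed likewise and used for levels, in no test.

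Genes with enough reads by filterByExpr were fitted in 1 edgeR 4.0.16 quasi-likelihood model over all 9 libraries with TMM scaling (R 4.3.3), and p-values were adjusted over all genes by the Benjamini-Hochberg method. Offsets for transcript length come from the deposited effective lengths, weighted by the authors' TPM. Alternatives were DESeq2 1.42.0, RLE scaling, no filter, a replicate block, the length offset and leaving out each library. An adjusted p that DESeq2 did not give counts as neither held nor lost. The steps were tested on simulated counts. Depth limits SESN2 and the scarce transcripts most.

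The members and the pathway lists were chosen with earlier results of these data known. Besides the members, the text names up to 3 genes per list and comparison with the lowest adjusted p, the 4 genes nearest ATF4 and DDIT3 in pattern, TRIM28 and the RNA matched to TRIDENT; VLDLR, HERPUD1, GCN1, MARS1, ADM2, EIF2AK3, EIF2AK4, DUSP1, FOS and genes that share sequence with a member were otherwise named after their values were seen.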

Additional observations from a re-analysis of the deposited data

Results flagged for a closer look

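For 4 members every gRNA1 library lay below every control and every gRNA2 library lay above every control, as for 0.795% of all genes tested. The log2 fold change against control was -0.25 with gRNA1 and 0.66 with gRNA2 for ATF3, and -0.23 and 0.33 in the same comparisons for PPP1R15A. It was -0.21 with gRNA1 and 0.24 with gRNA2 for CEBPB, and -0.16 and 0.31 in the same comparisons for STC2. CEBPB was not past an adjusted p of 0.05 with gRNA1 (edgeR), and its gRNA2 call held in 6 of 14 alternatives. The members were chosen for going opposite ways with the guides, so no test of that difference is given as support, and both comparisons use the same 3 controls.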

How the results depend on the processing

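Of 420 member log2 fold changes recomputed over 14 alternatives, 5 moved by more than the spread and 0 changed sign; of 1871 values of other named or listed genes past the threshold, 316 lost it and 0 changed sign. With offsets for transcript length, 539 genes were called with gRNA1 (1392 without), 434 with gRNA2 (1668) and 446 between the guides (1227), with 1 of 10 members called with gRNA1 (3) and 12 and 20 list genes called with gRNA1 (32) and gRNA2 (44). With no filter on low counts, 2132 genes were called with gRNA1 and 1848 between the guides. Leaving out 1 library at a time gave 654 to 1712, 671 to 1831 and 575 to 1229 genes in the gRNA1, gRNA2 and between-guide comparisons, 0 to 3 members with gRNA1, and 13 to 36, 24 to 46 and 32 to 51 list genes (49 between the guides with all libraries). The cause of these shifts was not tested. Same-numbered libraries correlated between -0.0467 and 0.075 in their deviations from group means, and differently numbered ones between -0.0761 and 0.0544. Whether the numbers pair the libraries cannot be told from these values. With the replicate block 1264, 1582 and 1143 genes, 3, 8 and 9 members and 33, 44 and 46 list genes were called in the gRNA1, gRNA2 and between-guide comparisons.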
